A study of Mus musculus with 3 samples.

Results

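The 10 genes described here act on procollagen between its synthesis and the trimming of its propeptides, and they were taken as the rows whose gene name was P4ha1, P4ha2, P4ha3, Plod1, Plod2, Plod3, Serpinh1, Crtap, Pcolce or Bmp1. Each name matched 1 row, so all 10 were found among the 55573 genes listed. The measurements were UMI-RNAseq libraries of NIH3T3 cells, an established line of mouse embryonic fibroblasts, grown in DMEM with 10% fetal bovine serum and without treatment. The 3 libraries are replicates of this 1 condition, named library 1 to library 3 here. The sources do not state separate cultures for them, so their SD may hold technical spread only. The values are FPKM, fragments per kilobase of gene length per 1000000 counted fragments, after PCR copies had been removed by their unique molecular identifiers (UMI).

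Collagen chains are made in the endoplasmic reticulum, where prolyl 4-hydroxylases modify prolines so that the triple helix is stable at body temperature. Lysyl hydroxylases modify lysines, which later carry sugars and crosslinks. The chaperone encoded by Serpinh1 (Hsp47) binds the folded helix until it reaches the Golgi, and outside the cell the proteinase encoded by Bmp1 removes the C-propeptide, helped by the product of Pcolce. Fibroblasts are known as a main source of fibrillar collagen.

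The libraries held between 13959723 and 14423209 counted fragments, which were recovered from the steps between FPKM values. The NIH3T3 label was compared with marker genes, because the extraction text of the labels mentions retina. Of 12 fibroblast markers, 10 had a mean of at least 10 FPKM. Over all 12, the means ran from 4377 for Fn1 to 0.0378 for Fap, and the summed level lay between 9582 and 9701 FPKM per library. Of 12 retina markers, 1 reached 10 FPKM, which was Rbpms at 57.2 FPKM. The summed level of these 12 lay between 57.2 and 63.2 FPKM, with 3 of them, the rod factor Nrl included, at 0 in every library. None of 6 cartilage and bone, 4 epithelial, 3 endothelial and 4 blood markers reached 10 FPKM, and the highest of these were Bglap at 0.297, Cdh1 at 0.442, Cdh5 at 1.35 and Ptprc at 0.0245 FPKM. The lowest were Ibsp, Epcam and Cd3e at 0 and Tek at 0.0482 FPKM.

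All 10 genes were measured in every library, on 237 to 17668 fragments each. With a mean of at least 10 FPKM as the limit, 9 of 10 passed, against 14.8% of all genes listed. Among the 12905 genes with a mean of at least 1 FPKM, 8203 passed. The gene of the 10 that did not pass was P4ha3. The median of the 10 means was 62.4 FPKM, compared with 17.5 FPKM over the 12905 genes with a mean of at least 1 FPKM. Together they took 0.215% of the summed FPKM in library 1, 0.219% in library 2 and 0.218% in library 3. Serpinh1 alone made up 53.7% ± 0.105 (SD, n = 3) of the sum over the 10 genes, and Pcolce 15.5% ± 0.205.

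**Figure D1:**
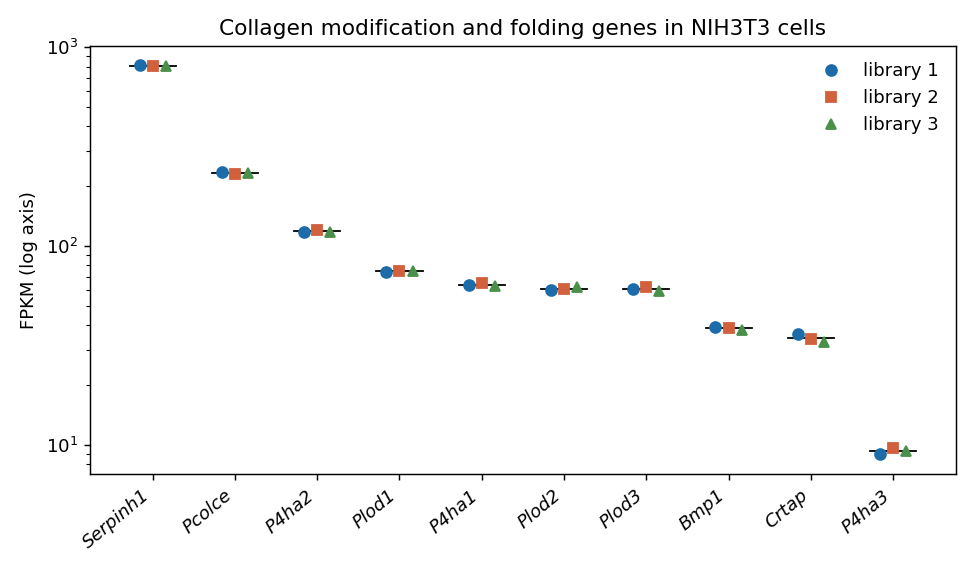
FPKM (log axis) of the 10 genes in each library, ordered by mean, with a symbol per library and a line at the mean. Serpinh1 stood at 801 to 811 FPKM and P4ha3 at 8.93 to 9.65, and the symbols of Plod2 and Plod3 covered the same range.

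Because paralogs can share reads, the coding sequences within each enzyme family were compared first. The coding sequences of P4ha1 (1602 nt) and P4ha2 (1611 nt) were 64.8% identical over aligned bases, and that of P4ha3 (1626 nt) was 55.6% identical to P4ha1 and 56.4% to P4ha2. Plod1 (2184 nt) was 66.6% identical to Plod3 (2223 nt) and 63.2% to Plod2 (2211 nt), and Plod2 was 62.6% identical to Plod3. The longest unbroken match between any isoforms of a pair was 16 nt for P4ha1 and P4ha2 and 24 nt for Plod1 and Plod3, and shorter for the other pairs within each family, all far below the 150 nt reads. Of the 75-nt words in the annotated isoforms, 0% occurred in another gene for P4ha1, P4ha2, P4ha3, Serpinh1, Crtap and Bmp1. The closest stretch of each family is shown here as 60 coding bases from GENCODE M21 transcripts on GRCm38, 5′ to 3′ along the gene, with the longest shared run in capitals. The P4ha1 bases lie on the plus strand at chr10:59348248-59348307 in exon 6 of 15, and the P4ha2 bases on the plus strand at chr11:54117511-54117570 in exon 7 of 16. Both Plod stretches cross from exon 16 to exon 17 of 19, on the minus strand within chr4:147915941-147917361 for Plod1 and on the plus strand within chr5:136993257-136994145 for Plod3.
P4ha1: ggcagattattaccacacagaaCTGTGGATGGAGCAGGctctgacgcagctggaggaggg
P4ha2: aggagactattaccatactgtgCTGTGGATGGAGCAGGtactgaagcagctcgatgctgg
Plod1: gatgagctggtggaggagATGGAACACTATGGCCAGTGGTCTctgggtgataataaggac
Plod3: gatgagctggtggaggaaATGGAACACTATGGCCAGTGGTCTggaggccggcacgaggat

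The prolyl 4-hydroxylase genes encode the catalytic alpha subunits, each of which pairs with the beta subunit P4hb. P4ha2 (ENSMUSG00000018906), on chromosome 11 from 54100095 to 54131665, had the highest FPKM of the family, with 117.1, 120.5 and 118.2 in libraries 1 to 3, a mean of 118.6 ± 1.76 (SD, n = 3). P4ha1 (ENSMUSG00000019916), on chromosome 10 from 59323296 to 59373304, had 63.6, 64.9 and 63.0 FPKM, a mean of 63.8 ± 1.00. P4ha3 (ENSMUSG00000051048), on chromosome 7 from 100285520 to 100319699, had 8.93, 9.65 and 9.30 FPKM, a mean of 9.29 ± 0.362. The 3 levels did not overlap between genes, and the order was the same in every library. P4ha1 lay at 0.543, 0.539 and 0.533 times P4ha2, with a mean ratio of 0.538 ± 0.00527 (SD, n = 3), and P4ha2 lay 12.8-fold ± 0.318 above P4ha3. As shares of the family sum, P4ha2 took 61.9%, P4ha1 33.3% and P4ha3 4.85% of the FPKM.

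The order of P4ha1 and P4ha2 turned on the gene length that FPKM divides by. Before length enters, P4ha1 had more fragments than P4ha2 in every library, with 2858 against 1977, 2824 against 1970 and 2807 against 1980. The deposited values divide by the mean length of the annotated isoforms, which was 3116 nt for the 3 isoforms of P4ha1 and 1171 nt for the 15 isoforms of P4ha2, of which the shortest measures 265 nt. Divided by the longest isoforms instead, P4ha1 (4043 nt) lay 1.08-fold ± 0.0106 (SD, n = 3) above P4ha2, higher in 3 of 3 libraries. With the isoform that APPRIS ranks as principal (a divisor added once the values were known), P4ha1 lay at 0.790 ± 0.00773 (SD, n = 3) times P4ha2. P4ha2 lay above P4ha3 by 6.38-fold ± 0.159 with the longest isoforms and 8.60-fold ± 0.214 with the principal ones, compared with 12.8-fold as deposited. P4ha3 was the lowest with each of these 3 divisors, at 4.85% to 6.999% of the family. Which isoforms NIH3T3 cells express was not measured by these gene-level values.

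The lysyl hydroxylases Plod1, Plod2 and Plod3 were close to each other. Plod1 hydroxylates lysines in the helix, Plod2 those in the telopeptides, where crosslinks form, and Plod3 also transfers sugars to hydroxylysine. Plod1 (ENSMUSG00000019055), on chromosome 4 from 147909753 to 147936767, had 74.3, 75.05 and 75.2 FPKM in libraries 1 to 3, a mean of 74.9 ± 0.474 (SD, n = 3). Plod2 (ENSMUSG00000032374), on chromosome 9 from 92542223 to 92608428, had 59.8, 60.8 and 62.2 FPKM, a mean of 60.9 ± 1.20. Plod3 (ENSMUSG00000004846), on chromosome 5 from 136987019 to 136996648, had 60.5, 61.8 and 59.5 FPKM, a mean of 60.6 ± 1.16. Plod1 stood above both others in every library, by 1.23-fold ± 0.0174 (SD, n = 3) over Plod2 and 1.24-fold ± 0.0257 over Plod3. These levels rested on 1759 to 1807 fragments per library for Plod1, 1702 to 1784 for Plod2 and 1541 to 1579 for Plod3. Plod2 and Plod3 overlapped, with ratios of 0.988, 0.983 and 1.04, so no order between them could be given. In fragments not divided by length, Plod1 also stood above both others in 3 of 3 libraries. The ratios were 1.03-fold ± 0.0146 (SD, n = 3) over Plod2 and 1.15-fold ± 0.0239 over Plod3. Its place changed only with the longest isoform as divisor. The longest isoform of Plod1 (4097 nt) is 2.44 times its mean isoform length (1679 nt). The same factor was 1.83 for Plod2 and 1.81 for Plod3. With the longest isoforms, Plod1 fell to 0.920 ± 0.0130 (SD, n = 3) times Plod2 and 0.918 ± 0.0191 times Plod3, lower in 3 of 3 libraries. With the principal isoforms it stayed above them, by 1.16-fold ± 0.0164 and 1.16-fold ± 0.0241.

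**Figure D2:**
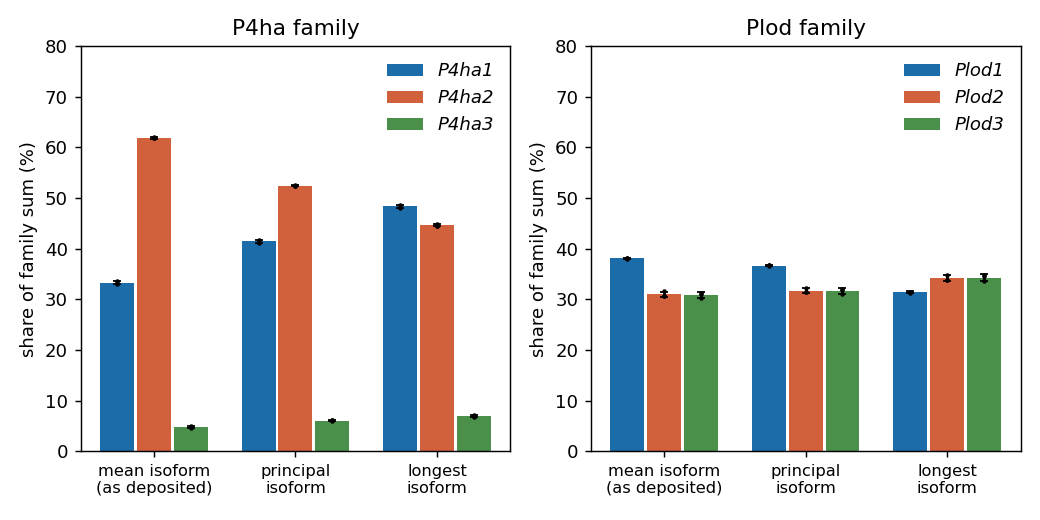
Share of the family sum (%) taken by each P4ha and Plod gene with the mean, principal or longest isoform length as divisor. Bars are means over 3 libraries, error bars are SDs and dots are libraries, and P4ha2 goes from 61.9% with the mean isoform to 44.6% with the longest.

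Some Plod fragments could also not be assigned with certainty. Plod3 shares 538 nt of its exons (11.9%) with other genes, nearly all with Znhit1 on the opposite strand, which had 18.6, 22.1 and 20.1 FPKM. Plod2 shares 346 nt (6.42%) with Gm38391 on the opposite strand, which had 0.880 to 1.18 FPKM. The sources do not state whether strand was used in counting, so reads from these stretches cannot be told apart, and their part in the levels was not tested. Of the 75-nt words of Plod3, 8.05% occurred in Znhit1, and of those of Plod2, 5.06% occurred in Gm38391.

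Serpinh1 had the highest level of the 10 genes. It encodes Hsp47, a chaperone that binds collagen in the endoplasmic reticulum and has few other known clients. Serpinh1 (ENSMUSG00000070436), on chromosome 7 (minus strand) from 99345376 to 99353239, had FPKM values of 811.2, 806.6 and 801.2 in libraries 1 to 3, a mean of 806.3 ± 5.03 (SD, n = 3). The value rested on 17668, 17002 and 17309 fragments, and its exact Poisson 95% interval in library 1 was 799.3 to 823.3 FPKM. Serpinh1 ranked 82 among the 12905 genes with a mean of at least 1 FPKM, and stood 3.46-fold above Pcolce, the next of the 10. With the longest isoform of each gene, the same distance was 5.91-fold. The collagen I chains Col1a1 and Col1a2, its best known substrates, had means of 1218 ± 7.80 and 1542 ± 11.7 FPKM (SD, n = 3). Their sum lay 3.43-fold, 3.42-fold and 3.42-fold above Serpinh1 in libraries 1 to 3, a mean of 3.42 ± 0.00434 (SD, n = 3). With the longest or the principal isoforms, this ratio became 1.92 ± 0.00279. The longest isoform measures 3.33 times the mean isoform length for Col1a1 and 1.51 times for Serpinh1.

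Crtap encodes a scaffold protein without enzyme activity that forms a complex with the prolyl 3-hydroxylase P3h1 and the isomerase Ppib. Crtap (ENSMUSG00000032431), on chromosome 9 (minus strand) from 114375134 to 114390675, had 36.1, 34.1 and 32.9 FPKM in libraries 1 to 3, a mean of 34.4 ± 1.61 (SD, n = 3). These values rested on 596, 545 and 539 fragments, with exact Poisson 95% intervals of 33.2 to 39.1 FPKM for library 1 and 30.2 to 35.8 for library 3, which overlap. P3h1 had 38.3, 35.8 and 35.7 FPKM, and its intervals for library 1 (35.9 to 40.8) and library 3 (33.4 to 38.1) overlap as well. P3h1 lay 1.07-fold ± 0.0179 (SD, n = 3) above Crtap, higher in 3 of 3 libraries, but at 0.843 ± 0.0141 times Crtap with the longest isoforms and at 0.903 ± 0.0152 with the principal ones. The deposited Ppib values were lower, with 22.8, 22.0 and 21.6 FPKM, or 0.645 ± 0.0132 (SD, n = 3) times Crtap. The Ppib value is uncertain, since 24.96% of its exonic bases overlap Snx22 on the opposite strand, which had 0.0876 to 0.314 FPKM. Of its 75-nt words, 26.01% (859) occur in 21 other genes. Snx22 holds 679 of these words, so this share is largely not separate from the overlap. The mean isoform length of Ppib (2099 nt) also averages the principal isoform of 892 nt with another of 3305 nt. Divided by the principal isoforms, Ppib lay 2.22-fold ± 0.0453 (SD, n = 3) above Crtap, so the direction of this ratio rests on the length chosen.

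Pcolce and Bmp1 act after secretion. Bmp1 is the procollagen C-proteinase, and Pcolce binds the C-propeptide and speeds its removal. Pcolce (ENSMUSG00000029718), on chromosome 5 (minus strand) from 137605103 to 137613784, had 235.7, 229.7 and 233.7 FPKM, a mean of 233.0 ± 3.02 (SD, n = 3). Bmp1 (ENSMUSG00000022098), on chromosome 14 (minus strand) from 70474558 to 70520234, had 39.0, 38.8 and 37.8 FPKM, a mean of 38.5 ± 0.643. The enhancer gene stood 6.05-fold ± 0.131 (SD, n = 3) above the proteinase gene in FPKM. The ratio was 4.30-fold ± 0.0927 with the longest isoforms and 4.67-fold ± 0.101 with the principal ones. In fragments not divided by length it was 2.06-fold ± 0.0445, so the size of this ratio rests on the length chosen. The values rested on 3207 to 3399 fragments per library for Pcolce and 1588 to 1652 for Bmp1. Pcolce has 12 annotated isoforms with a mean of 1000 nt and a longest of 2573 nt, and Bmp1 has 7 with a mean of 2937 nt and a longest of 5365 nt. Pcolce overlaps Fbxo24 and Gm36266 over 112 nt of exon (2.93%), and these genes had at most 0.492 and 0.532 FPKM.

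From the highest mean FPKM to the lowest, the order was Serpinh1, Pcolce, P4ha2, Plod1, P4ha1, Plod2, Plod3, Bmp1, Crtap and P4ha3. Each gene stood above the next in 3 of 3 libraries, except that Plod2 stood above Plod3 in 1 of 3. The smallest step that held in 3 of 3 libraries was from P4ha1 to Plod2, at 1.01-fold to 1.07-fold, or 0.07 ± 0.04 (SD, n = 3) on the log2 scale. The libraries of Plod2 reached 62.2 FPKM and those of P4ha1 went down to 63.0, so these ranges did not overlap but nearly met. The step from Bmp1 to Crtap was 1.12-fold, or 0.17 ± 0.05 on the log2 scale, and that from Crtap to P4ha3 was 1.89 ± 0.11. In FPKM this was the largest step, but with the longest isoforms the step from Serpinh1 to Pcolce was larger, at 2.56 ± 0.02 against 1.57 ± 0.07 for the step down to P4ha3, and with the principal isoforms as well, at 1.90 ± 0.02 against 1.70 ± 0.11. With the longest isoforms the order from the third place became P4ha1, P4ha2, Plod3, Plod2, Plod1, Crtap, Bmp1 and P4ha3. With the principal isoforms it became P4ha2, P4ha1, Plod1, Plod2, Plod3, Bmp1, Crtap and P4ha3. There P4ha1 stood above Plod1 in 3 of 3 libraries, by a mean of 1.27-fold, the reverse of their order in FPKM. Serpinh1 first, Pcolce second and P4ha3 last held with each of the 3 length divisors. The 6 paralog ratios and 6 ratios to partners were tested by flipping the signs of the log2 values of the libraries, a two-sided exact permutation test. This exact test gave p = 0.25 for each except Plod2 to Plod3, which had p = 1, and the Benjamini-Hochberg adjusted value over these 12 was 0.273 for the other 11. No p below 0.25 can be reached with 3 libraries, so the test could not pass 0.05.

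**Figure D3:**
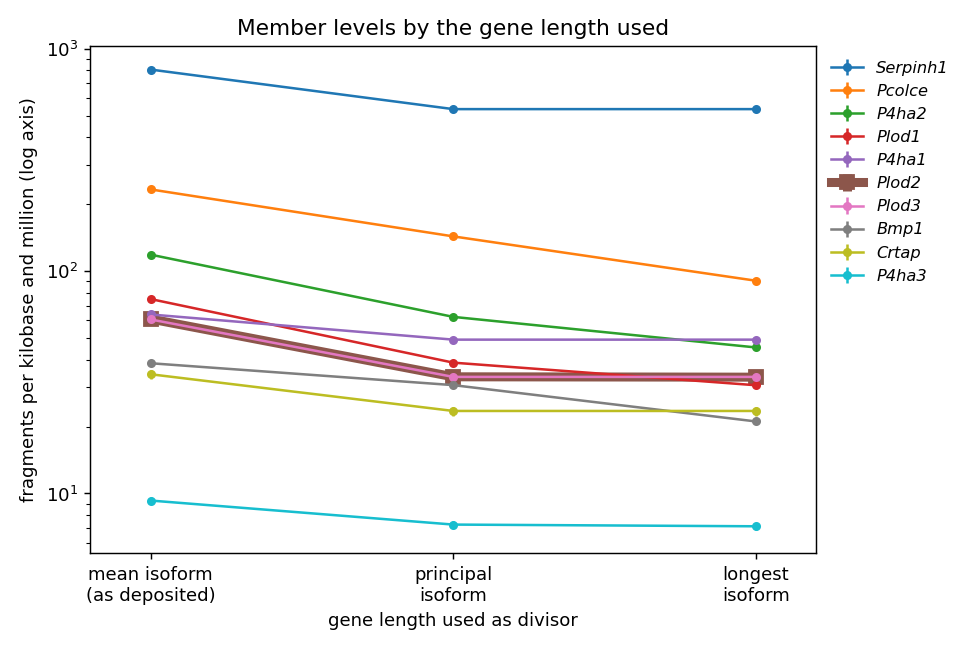
Mean level of each gene (log axis, fragments per kilobase and per 1000000, error bars are SDs over 3 libraries) with the mean, principal or longest isoform length as divisor. Between the principal and the longest isoform, P4ha1 crosses P4ha2, Bmp1 crosses Crtap, and Plod1 crosses the Plod2 and Plod3 pair. P4ha1 crosses Plod1 between the mean and the principal isoform, while Serpinh1, Pcolce and P4ha3 keep their places.

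The spread between libraries was set beside the counting error of each gene. The coefficient of variation (CV) over libraries was lowest for Serpinh1 (0.623%) and Plod1 (0.633%) and highest for Crtap (4.69%) and P4ha3 (3.90%). Counting error alone, taken from the fragments of each gene as for a Poisson count, would give 0.760% for Serpinh1, 2.36% for Plod1, 4.23% for Crtap and 6.41% for P4ha3. The CV was below that of counting error for 9 of the 10 genes, the exception being Crtap, and for 56.4% of the 9904 genes with a mean of at least 1 FPKM and 100 fragments. A chi-square statistic of the fragments over libraries passed its 5% limit for 0 of the 10 genes, against 10.6% of the same 9904 genes. The highest value among the 10 was 2.48, for Crtap, and the lowest 0.144, for Plod1. A difference between libraries was not detectable at this depth for any of them. For P4ha3, with 237 to 248 fragments, the exact Poisson 95% interval of the FPKM was 7.83 to 10.1 for library 1 and 8.49 to 10.9 for library 2, and covers counting error only.

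**Figure D4:**
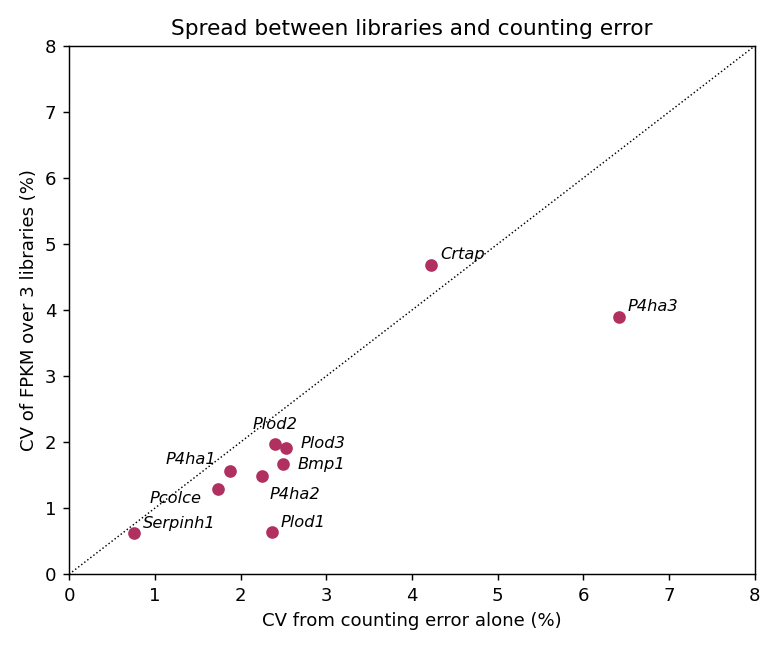
CV of FPKM over the 3 libraries (%) against the CV from counting error alone (%) for the 10 genes, with a dotted line where both are equal. Crtap lies above the line (4.69% against 4.23%) and the other 9 genes lie below it.

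A list of 20 other genes of collagen modification, folding, export and propeptide removal was set beside the 10. Of these, 12 had a mean of at least 10 FPKM, against 14.8% of all genes listed. Another 2 lay between 1 and 10, 6 lay below 1 and 3 of those 6 had 0 fragments in every library. Among genes with a mean of at least 1 FPKM, 12 of 14 on the list passed 10 FPKM, beside 8203 of 12905 over all genes. The protein disulfide isomerase genes were among the 3 highest, with 581.9 ± 9.91 FPKM (SD, n = 3) for Pdia3 and 454.4 ± 7.997 for P4hb, which serves both as the beta subunit of prolyl 4-hydroxylase and as a free isomerase. P4hb stood 2.45-fold, 2.30-fold and 2.36-fold above the sum of P4ha1, P4ha2 and P4ha3, a mean of 2.37 ± 0.0714 (SD, n = 3). With the longest isoforms P4hb stood 2.11-fold ± 0.0629 above this sum, and with the principal ones 1.80-fold ± 0.0541. Sparc, a matrix protein that binds collagen, had 488.6 ± 7.09 FPKM, and Mia3, the receptor that loads procollagen at exit sites, had 127.0 ± 1.00. The value of Mia3 gave no whole fragments at its GENCODE M21 length, so its counting error is unknown.

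In the prolyl 3-hydroxylase family, P3h4 had 54.4 ± 0.625 FPKM, P3h3 39.5 ± 2.29 and P3h1 36.6 ± 1.48 (SD, n = 3), whereas P3h2 had 0 fragments. The galactosyltransferase gene Colgalt1, which adds the first sugar to hydroxylysine, had 46.0 ± 2.21 FPKM, and its paralog Colgalt2 had 0 fragments. A count of 0 allows up to 3 fragments per library, which is 0.187 FPKM for P3h2 and 0.0576 for Colgalt2 in the shallowest library. These limits cover counting error only. P3h2 shares 1055 nt of its exons (28.4%) with Gm4524 on the opposite strand, and the effect of this overlap was not tested. Colgalt1 lay at 0.759 ± 0.0376 (SD, n = 3) times Plod3, but 1.14-fold ± 0.0563 above it with the longest isoforms. The isomerase Fkbp10, which assists lysine hydroxylation by Plod2, had 87.6 ± 2.09 FPKM and its relative Fkbp14 6.78 ± 1.25, with library 2 the highest at 8.23. Tmem38b, an ion channel of the endoplasmic reticulum, had 15.7 ± 1.33 FPKM. Colgalt1 shares 495 nt of exon (11.4%) with Unc13a on the opposite strand, which had 5.41 to 5.66 FPKM. Fkbp10 shares 193 nt (6.58%) with Nt5c3b, at 32.4 to 35.0 FPKM, and Fkbp14 208 nt (5.01%) with Plekha8, at 4.45 to 4.91. Both of these also lie on the opposite strand, and the part of such overlaps in the levels was not tested.

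Among Bmp1 and its 2 listed relatives Tll1 and Tll2, only Bmp1 lay above 1 FPKM. Tll1 and Tll2 rested on 2, 4 and 4 fragments and on 0, 0 and 1 fragments in libraries 1 to 3, or at most 0.105 and 0.0175 FPKM. Pcolce2, the paralog of Pcolce, rested on 2, 1 and 1 fragments, or at most 0.0548 FPKM. The N-propeptide is removed by other enzymes, of which Adamts2 had 11.6, 9.28 and 9.66 FPKM, Adamts14 had 8.92, 8.19 and 8.28, and Adamts3 had 0 fragments, which allows up to 0.0837 FPKM. Of the 13 listed genes with enough fragments, 3 passed the chi-square limit between libraries, against 10.6% of all genes tested, namely Adamts2, Fkbp14 and Colgalt1, with CVs of 12.5%, 18.5% and 4.80%.

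**Figure D5:**
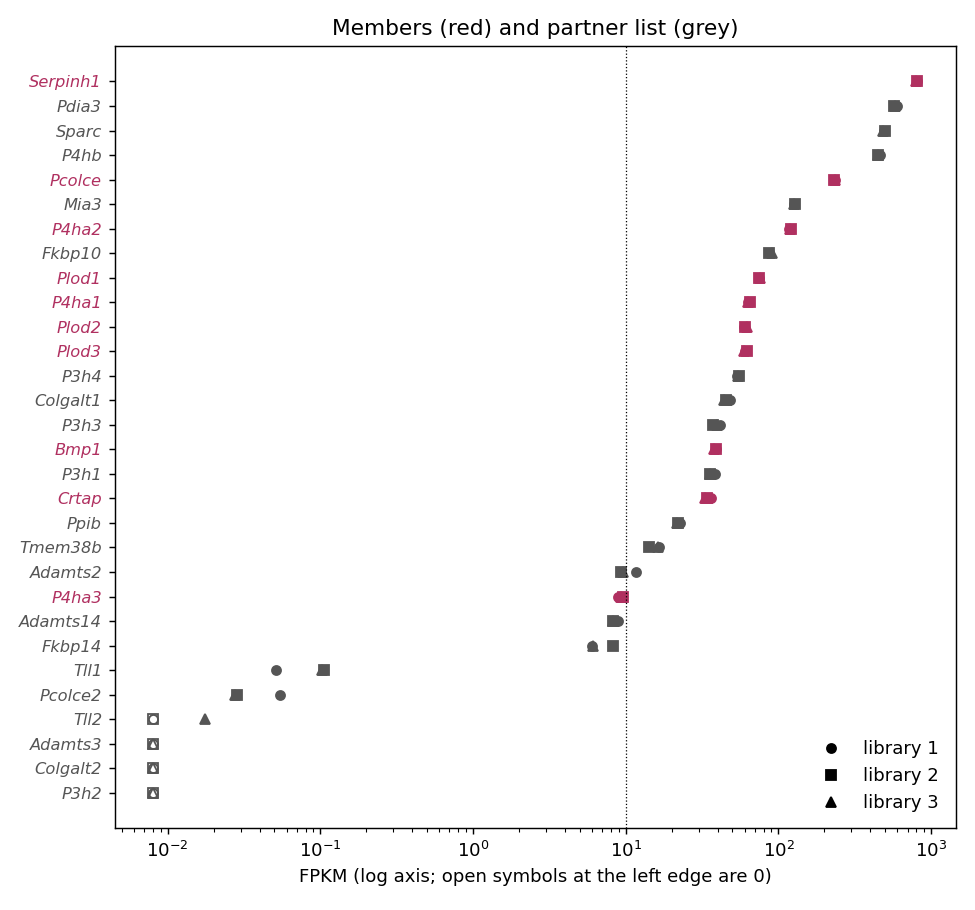
FPKM (log axis) of the 10 genes (red) and of the 20 other genes of the pathway (grey) in each library, ordered by mean, with a dotted line at 10 FPKM. Serpinh1 is the highest of all 30, and a gap without genes separates Fkbp14, at a mean of 6.78 FPKM, from Tll1, at 0.0864.

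In the genome, the 10 genes lie on 7 chromosomes. Serpinh1 and P4ha3, the highest and the lowest, are both on chromosome 7 with 932.3 kb between them, and Plod3 and Pcolce are both on chromosome 5 with 608.5 kb between them. Of the other genes of the pathway, P3h4 and Fkbp10 lie head to head on chromosome 11, on opposite strands with 860 nt between their annotated ends, at 54.4 and 87.6 FPKM.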

How the data were processed

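Total RNA of NIH3T3 cells was made into 3 TruSeq libraries with UMI. Per the labels and the study's methods, the authors identified UMI with UMI-tools 1.0.0 and aligned with HISAT2 2.0.4. Reads with the same mapped position and UMI were then removed as PCR copies. Counting used HTSeq 0.6.1, and the submitters' processing notes also list DESeq 1.10.1. The genome build and the strand setting of the counting are not given in the sources used here. The deposited unit is FPKM for 55573 genes and 3 libraries, in 2 tables with identical values and 0 value columns of other samples. The authors' gene length was found by multiplying FPKM by library total and length. With the rounded mean isoform length of GENCODE M21 (GRCm38), 25969 of 26193 genes with a fragment (99.1%) gave whole fragments, within 0.01 for values below 1000, and the totals were 14423209, 13959723 and 14307241 fragments. Intervals (exact Poisson, 95%) and floors (3 fragments) cover counting error only.

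All 3 libraries form 1 group. Levels are means ± SD, and levels of different genes are compared per length. Fragments not divided by length are shown for their depth and served as an alternative only. Within-library log2 ratios of FPKM were tested by flipping signs over libraries (two-sided, exact permutation test), with Benjamini-Hochberg adjustment over 12 ratios. The fragments of each gene were compared between libraries by chi-square, read only against the share of all genes past the same limit. Coding sequences were aligned globally. Python 3.11.15, numpy 2.4.6, pandas 2.3.3, scipy 1.17.1, Biopython 1.88 and matplotlib 3.10.9 were used, and the scripts were tested on simulated data. Alternatives were the longest isoform, fragments without length, a pseudocount, other FPKM limits, each library left out and, chosen after seeing the data, the APPRIS principal isoform. Named genes are the 10 genes, the 20 genes of the pathway list, Col1a1 and Col1a2, overlapping genes, and the highest and lowest marker of each list. The 10 genes and the lists were chosen with earlier results of these data known. Protein sequences were not analysed here.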

Additional observations from a re-analysis of the deposited data

How the results depend on the processing

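TPM and median-of-ratios scaling act alike on both genes of a library and so cannot move a ratio. Under the other alternatives, 83 of 96 recomputed values of the 12 ratios kept their direction, although 23 of these 83 moved by over 1 SD of the libraries, 21 of them with another length divisor and 2 with a pseudocount. The other 13 reversed, on the log2 scale as follows. With the longest isoform as divisor, P4ha1 to P4ha2 became 0.12, Plod1 to Plod2 -0.12, Plod1 to Plod3 -0.12, Plod2 to Plod3 -0.0040, P3h1 to Crtap -0.25 and Colgalt1 to Plod3 0.18. With fragments not divided by length, P4ha1 to P4ha2 became 0.52, Ppib to Crtap 0.24 and Colgalt1 to Plod3 0.15. With the APPRIS principal isoform, chosen after seeing the data, P3h1 to Crtap became -0.15, Ppib to Crtap 1.15 and Colgalt1 to Plod3 0.18. Each of these alternatives changes only the divisor of a gene, so the length is what moved the ratio. With 1 library left out, Plod2 to Plod3 ran from -0.021, without replicate 3, to 0.023, without replicate 2, and none of the other 11 ratios changed direction. Pseudocounts of 0.1 and 1 reversed none. At a limit of 50 FPKM, 7 of the 10 genes passed in place of 9, and 6 of the 20 pathway genes in place of 12. Of all 55573 genes listed, 2788 passed that limit. At the limit of 10 FPKM, 11 of the 20 passed without replicate 1, and 12 without replicate 2 or without replicate 3. Adding pseudogenes gave no value, since 0 were named after the 10 genes. No paired analysis was possible because the libraries form 1 group. Depth limits the genes below 1 FPKM, which rest on at most 4 fragments per library. Neither the isoforms used by the cells nor the source of overlapping reads can be read from gene-level values.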
